A study of Mus musculus with 90 samples.

Results

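The genes described here are the 3 D-type cyclins (Ccnd1, Ccnd2 and Ccnd3), 4 inhibitors of cyclin-dependent kinases (Cdkn1a, Cdkn1b, Cdkn2a and Cdkn2b), Myc, Mdm2 and Ccng1. They were taken from the count table by gene symbol, and all 10 of 10 were found among 53697 gene identifiers. The table covered 2 mouse tumour cell lines, YUMM2.1, a melanoma line derived from a mouse with mutant Braf, and CT26, a chemically induced colon carcinoma line. Both were grown with interferon-γ (IFNγ) at 50 IU/mL or with a bovine serum albumin control at 0 IU/mL. RNA was counted by 3′ digital gene expression, in which only the end of each transcript is read.

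Each line had 15 groups of 3 libraries, 45 libraries per line and 90 in all. At 0 weeks there was an untreated control, and naive cells were taken 2 h and 24 h after their first IFNγ. At 1, 2 and 3 weeks there was a control culture, a culture kept in IFNγ and not rechallenged, and the same IFNγ-exposed cells 2 h and 24 h after rechallenge with the cytokine. Cells of every group were grown in RPMI-1640 medium with serum and replated before harvest. Each line is a single cell line, so differences between lines are differences between these 2 cultures. Values below are CPM, counts scaled to a common library total, as mean ± SD of 3 libraries unless stated otherwise.

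D-type cyclins carry growth signals to CDK4 and CDK6, which phosphorylate the retinoblastoma protein and let cells leave G1. Cdkn1a (p21) and Cdkn1b (p27) bind cyclin-CDK complexes, and Cdkn2b (p15) and the p16 product of Cdkn2a block CDK4 and CDK6. The other product of Cdkn2a, p19Arf, holds back Mdm2, the ubiquitin ligase that degrades p53, while Cdkn1a, Mdm2 and Ccng1 are themselves transcribed by p53. Myc is a transcription factor that drives growth and ribosome production, and IFNγ is known for slowing the cycle of many cell types.

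The promoters of the 3 p53 target genes are shown because Mdm2 had the largest changes among these genes and Cdkn1a and Ccng1 are its partners in that pathway. Windows of 250 bases before to 50 after a start site were found for 7 of the 10 genes in RefSeq (GRCm38.p6), 10 windows in all; Ccnd1, Ccnd2 and Myc had no entry. The 250 bases before the start are printed 5′ to 3′ on the gene's strand, and capitals mark each match to the decamer of the p53 element. For Cdkn1a the start that lies further upstream is shown, at chr17:29090729-29090978 on the plus strand. The Mdm2 stretch lies at chr10:117710759-117711008 and the Ccng1 stretch at chr11:40755287-40755536, both on the minus strand.
Cdkn1a: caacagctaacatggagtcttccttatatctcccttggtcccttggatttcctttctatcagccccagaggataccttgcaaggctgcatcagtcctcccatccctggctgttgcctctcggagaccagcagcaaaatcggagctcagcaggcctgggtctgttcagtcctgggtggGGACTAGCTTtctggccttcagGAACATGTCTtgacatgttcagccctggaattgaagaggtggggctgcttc
Mdm2: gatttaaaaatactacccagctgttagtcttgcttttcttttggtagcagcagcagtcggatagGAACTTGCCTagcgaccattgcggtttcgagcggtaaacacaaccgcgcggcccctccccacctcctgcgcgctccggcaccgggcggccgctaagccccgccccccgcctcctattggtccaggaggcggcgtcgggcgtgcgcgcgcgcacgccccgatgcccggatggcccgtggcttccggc
Ccng1: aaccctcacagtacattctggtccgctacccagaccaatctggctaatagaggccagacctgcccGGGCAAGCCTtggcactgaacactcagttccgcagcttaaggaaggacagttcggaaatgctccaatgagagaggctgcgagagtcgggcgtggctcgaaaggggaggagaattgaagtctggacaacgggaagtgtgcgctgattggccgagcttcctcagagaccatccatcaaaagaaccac
The decamer, searched on both strands, was in 8.36% of the 32851 windows of all genes. The upstream Cdkn1a window held 2 matches, starting 73 and 51 bases before the start site, and its other window, chr17:29093519-29093818, held 0. Mdm2 held 1 at 186 bases and Ccng1 1 at 185 bases. Bases outside these windows were not searched, and whether p53 binds a marked match was not tested. The windows of Ccnd3, Cdkn1b, Cdkn2a and Cdkn2b held none. No window of the 7 genes held the E-box CACGTG that Myc binds (7.15% of all windows) or the interferon response core, a pair of GAAA with 2 bases between (3.44%).

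YUMM2.1 libraries held 274719 to 3161276 counts (median 1403265) and CT26 libraries 295157 to 2205285 (median 1318011), and 1 YUMM2.1 and 2 CT26 libraries held less than 25% of their line's median. All 3 of these were the third replicate of an IFNγ culture without rechallenge, at 3 weeks in YUMM2.1 and at 1 and 3 weeks in CT26. Irf1, a known target of IFNγ, separated control groups from IFNγ groups in both lines by its group means, while the group means of Cd274 overlapped. Irf1 did not follow every rechallenge label. In CT26 at 3 weeks it averaged 81.6 CPM without rechallenge and 66.6 after 24 h. Without rechallenge at 1 and 2 weeks it averaged 27.9 and 28.0. In YUMM2.1 at 3 weeks it averaged 34.1 CPM without rechallenge and 36.2 after 24 h. Group means of Irf1 lay at 8.54 to 13.5 CPM in controls against 34.1 to 262 with IFNγ in YUMM2.1 and 7.23 to 12.1 against 27.9 to 109 in CT26, and Cd274 (PD-L1) at 0 to 1.80 against 1.22 to 27.4 and 0 to 0.626 against 0.238 to 16.0. Of 8 melanocyte markers, 7 were detected in YUMM2.1, at a summed 15.6 to 69.8 CPM, with Tyrp1 at 0 throughout. In CT26 6 were detected, at 0.636 to 16.9 CPM, so the sums of the lines overlapped. Of 8 colon epithelium markers, 4 were detected in CT26, at 47.4 to 131 CPM, and Cdh1, Epcam, Krt19 and Vil1 were at 0 throughout. In YUMM2.1 5 were detected, at 0 to 2.80 CPM. Detected means any count in any library of a line, so the numbers detected do not separate the lines. Leukocyte markers summed to at most 5.16 CPM in any library, and fibroblast markers to at most 4.60 in YUMM2.1 and 19.2 in CT26. Cultures are bulk samples, so fewer cells that express a gene and less RNA per cell cannot be told apart.

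Cdkn2a and Cdkn2b were at 0 counts in all 90 libraries. Cdkn2a lies at chr4:89274471-89294653 and Cdkn2b at chr4:89306299-89311039, both on the minus strand (GRCm38). Summed over a line, a count of 0 allows up to 0.0429 CPM in YUMM2.1 and 0.0531 in CT26, and in a single library up to between 0.949 and 10.9 CPM in YUMM2.1 and between 1.36 and 10.2 in CT26. The count of a 3′ read does not tell p16 from p19Arf, since both transcripts of Cdkn2a share their end.

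The nearest neighbour on one side was detected in CT26 and not in YUMM2.1. Mtap, a methionine salvage enzyme that lies next to Cdkn2a at chr4:89137122-89181081, had 0 counts in all 45 YUMM2.1 libraries, while CT26 held it in 45 of 45 libraries, between 27.1 and 62.0 CPM with a median of 43.6. Dmrta1, on the far side of Cdkn2b at chr4:89679436-89694772, was near the floor in both lines, with 12 counts over 8 libraries of YUMM2.1 and 4 counts over 4 libraries of CT26. Of 20 protein-coding genes within 500 kb, the pair included, 1 had any count in YUMM2.1 and 4 in CT26, and many of the 20 are type I interferon genes. These neighbours were looked up after the 2 zeros were seen, and counts of RNA do not show whether DNA is present.

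The fourth inhibitor, Cdkn1b, was close to the floor. Its counts ran from 2 to 22 per YUMM2.1 library (median 8, or 4.92 CPM) and from 0 to 6 in CT26 (median 2, or 1.68 CPM), with 0 in 7 of 45 CT26 libraries. It passed the filter on low counts in YUMM2.1 only, which left 8 of the 10 genes tested there, among 9589 genes, and 7 in CT26, among 8516. A model of both lines tested 10339 genes, 8 of the 10 included.

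**Figure D1:**
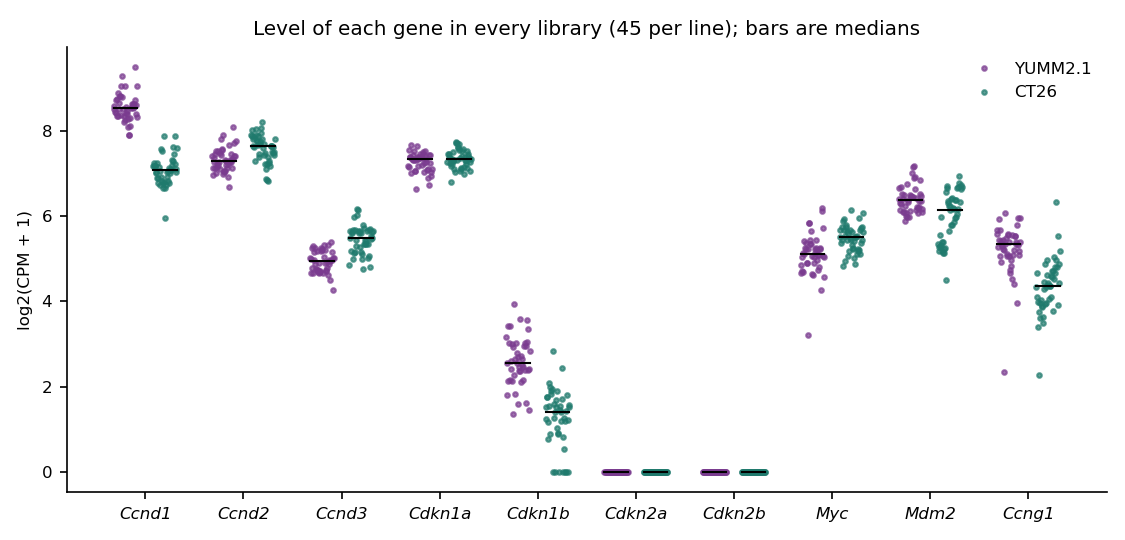
Level of each of the 10 genes in every library, as log2(CPM + 1), with YUMM2.1 in purple, CT26 in green and the median of the 45 libraries of a line as a bar. Cdkn2a and Cdkn2b lie at 0 in all 90 libraries, Cdkn1b is low in both lines, and Mdm2 in CT26 spans 21.7 to 121 CPM.

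The untreated lines differed in most of these genes. YUMM2.1 controls had more Ccnd1, Mdm2 and Ccng1 RNA, and CT26 controls had more Ccnd2, Ccnd3 and Myc RNA. In this comparison 6 of 8 tested genes passed an adjusted p of 0.05 in edgeR's quasi-likelihood test, where 46.0% of all genes did, so a difference in any single gene was common. DESeq2 called 7.

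Among the cyclins the lines were opposite. Ccnd1 stood at 379.7, 364 and 346 CPM in the YUMM2.1 controls and at 145, 144 and 149.6 in the CT26 controls, a log2 difference of 1.14 ± 0.18 (SE; adjusted p = 9.45e-08). Ccnd2 stood at 170.3, 123 and 138 CPM against 237, 233 and 259.9, a log2 difference of -0.91 ± 0.14 (adjusted p = 1.01e-07). The libraries of the lines did not overlap for either gene. Ccnd3 lay at 31.6, 24.6 and 31.0 CPM against 28.1, 48.9 and 44.1, with overlapping libraries, and its log2 difference of -0.61 ± 0.23 (adjusted p = 0.0233) did not pass when libraries were scaled by their totals (-0.45, adjusted p = 0.112). It was also lost without the second CT26 control (-0.46, adjusted p = 0.151), the third (-0.55, adjusted p = 0.0829) or the second YUMM2.1 control (-0.50, adjusted p = 0.0982).

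Myc was lower in YUMM2.1, at 27.8, 24.6 and 25.4 CPM against 44.6, 50.2 and 40.5 (log2 difference -0.95 ± 0.22, adjusted p = 0.000189). Mdm2 was higher there, at 83.5, 101 and 78.1 CPM against 39.8, 37.6 and 35.2 (1.03 ± 0.18, adjusted p = 1.03e-06), and so was Ccng1, an atypical cyclin, at 47.1, 50.5 and 37.8 against 19.2, 24.5 and 16.1 (1.00 ± 0.31, adjusted p = 0.00536). None of the libraries of the lines overlapped for these 3 genes. Cdkn1a did not pass, at 143, 187 and 141 CPM against 152, 176 and 174, with a 95% interval of -0.54 to -0.02 for the log2 difference.

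Other genes of these pathways were read from lists beyond the 10 genes, in the same comparison of untreated lines, where 46.0% of all genes passed. Of 28 genes that Myc is known to activate for growth, 21 were lower and 0 higher in YUMM2.1, with a median log2 difference of -0.76 beside 0.08 for all genes tested. Among them Ran, a nuclear transport GTPase, averaged 1029 against 2794 CPM, Ldha, the lactate dehydrogenase of glycolysis, 2269 against 6026, the spermidine synthase Srm 35.8 against 121 and the ribosome factor Bop1 20.9 against 61.0. Of 22 tested genes of the G1/S machinery, 3 were higher and 4 lower, a smaller share than among all genes, including the S-phase cyclin Ccne2 (137 against 55.9 CPM), Ccnh (109 against 52.5) and the CDK4 and CDK6 inhibitor Cdkn2c (20.1 against 4.81), all higher, and E2f4 (6.33 against 24.95), lower. Of 22 p53 network genes, 5 were higher and 4 lower, also a smaller share than among all genes. Pmaip1 (Noxa) averaged 12.7 CPM in YUMM2.1 controls and was at 0 counts in all 3 CT26 controls, Plk2 averaged 52.8 against 20.9 CPM, the ribonucleotide reductase subunit Rrm2b 266 against 987 and Tigar 5.70 against 19.6. Of 7 tested Myc network genes 1 differed, the Myc partner Max, at 58.2 against 25.7 CPM.

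The first question within each line was whether naive cells changed these genes on their first IFNγ. No change passed in either line, and both times share the 0-week control. Of 16 gene and time pairs in YUMM2.1, 0 passed in edgeR and 0 in DESeq2, and 1 had an unadjusted p under 0.05; of 14 pairs in CT26, 0 passed in either tool and 1 was under that level. Among all genes, 0.240% passed at 2 h and 0.886% at 24 h in YUMM2.1, and 0.235% and 2.04% in CT26. An unadjusted p under 0.05 was found at 2 h and 24 h for 348 and 673 of 9589 genes in YUMM2.1. In CT26 it was found for 310 and 971 of 8516. Over all tested pairs the 95% intervals for the log2 change reached from -0.96 to 1.41 in YUMM2.1, where Cdkn1b set both ends, and from -1.71 (Ccng1) to 0.74 (Myc) in CT26. Without Cdkn1b and Ccng1 they reached from -0.49 to 0.97 (YUMM2.1) and from -0.58 to 0.74 (CT26).

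The values nearest to a change were in Myc and Ccng1. Myc in YUMM2.1 stood at 33.8, 42.0 and 37.2 CPM 24 h after IFNγ against 27.8, 24.6 and 25.4 in controls, libraries that did not overlap (log2 change 0.50 ± 0.23, adjusted p = 0.682). Ccng1 in CT26 stood at 3.85, 14.5 and 11.2 CPM at 24 h against 19.2, 24.5 and 16.1 (-0.92 ± 0.39, adjusted p = 0.329). The line difference in the naive response was tested directly and passed for 0 of 8 genes at both times, where 0% of all genes passed at 2 h and 0.0870% at 24 h.

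Chronic exposure was read against the control culture of the same week. The single call was Cdkn1a in CT26 at 2 weeks, where p21 RNA was lower in the IFNγ culture. Its levels were 133, 139.8 and 136 CPM with IFNγ and 204, 187 and 164 in the control, without overlap (log2 change -0.53 ± 0.12, adjusted p = 0.00451). At 1 and 3 weeks the change was -0.24 (95% interval -0.49 to 0.00) and -0.15 (-0.40 to 0.09), and neither passed. Of all genes 0.728%, 1.67% and 7.23% passed in CT26 at 1, 2 and 3 weeks. The call was lost without the first replicate of the 2-week control (-0.44, adjusted p = 0.0981) and when genes of low count were kept (-0.50, adjusted p = 0.135). Against the 0-week control, which stood at 152, 176 and 174 CPM, it did not pass either (-0.28, adjusted p = 0.349).

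In YUMM2.1 no gene passed at any week, 0 of 24 pairs, with 2 pairs at an unadjusted p under 0.05, and 0.730%, 1.12% and 0.970% of all genes passed. Under that unadjusted level were 570, 689 and 1011 of 9589 genes at 1, 2 and 3 weeks. Both of the 2 pairs were Cdkn1a. At 1 week it stood at 131, 132 and 99.2 CPM with IFNγ against 171, 184 and 158 in the control (log2 change -0.52 ± 0.14, adjusted p = 0.0572), and DESeq2 called it. At 3 weeks it stood at 137, 118 and 106 CPM against 161, 153 and 136 (-0.37 ± 0.14, adjusted p = 0.290), with overlapping libraries. The line difference in the 3-week response passed for 0 of 8 genes, where 0.106% of all genes passed, and for Cdkn1a its 95% interval ran from -0.67 to 0.10.

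**Figure D2:**
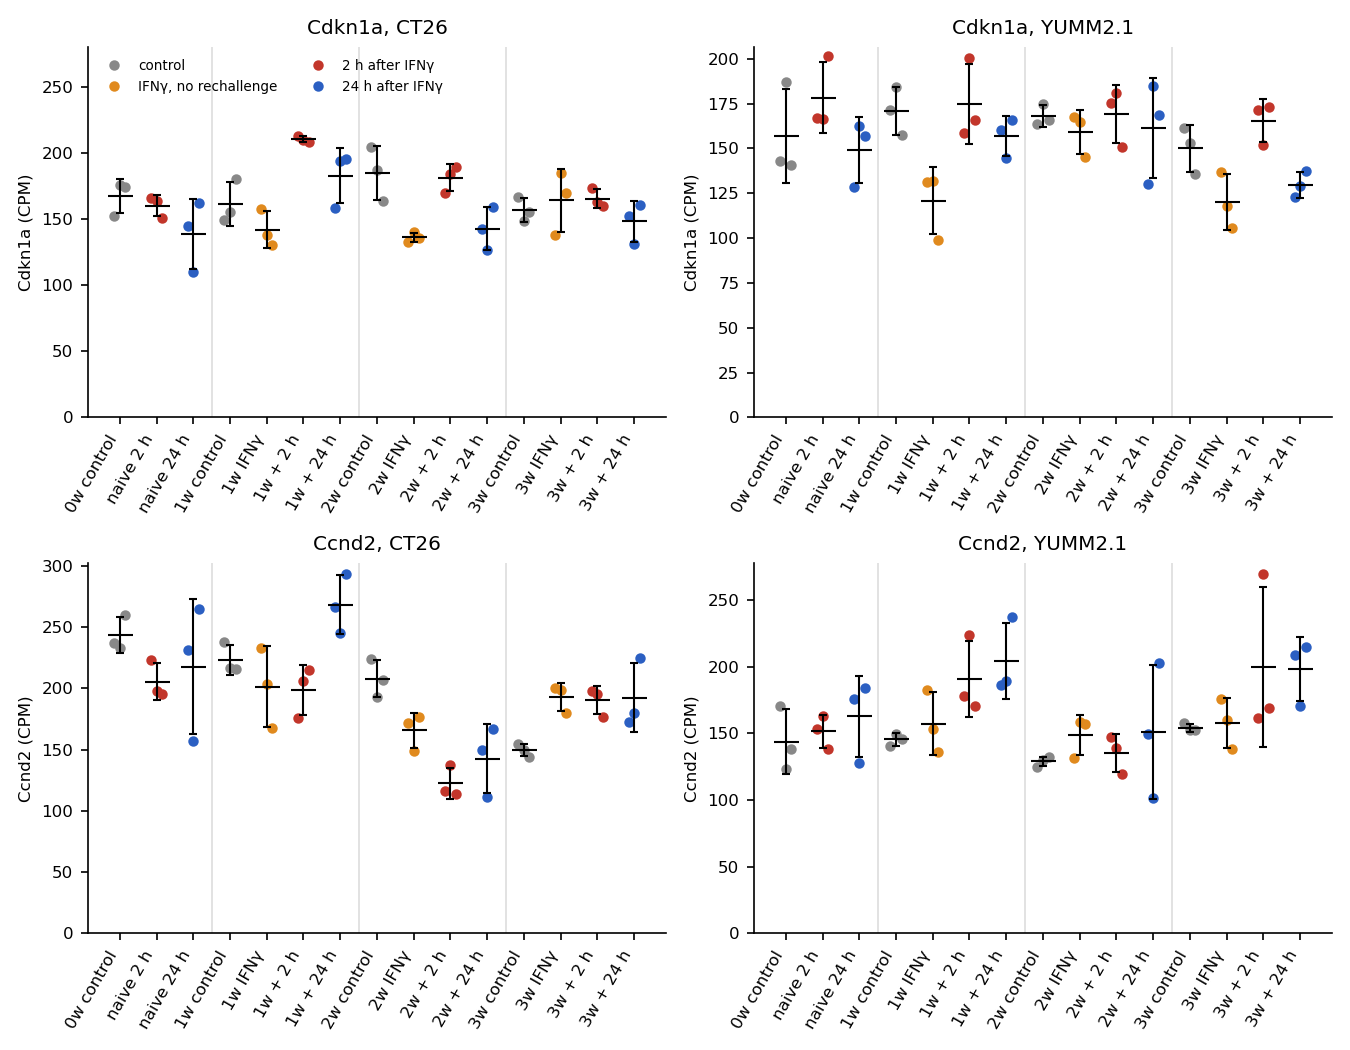
Cdkn1a and Ccnd2 in CT26 and YUMM2.1, in CPM, for each of the 15 groups. Points are libraries, bars are mean ± SD of 3 libraries, and grey lines separate the weeks. Cdkn1a at 2 weeks in CT26 is lower with IFNγ (136 ± 3.57 CPM) than in the control (185 ± 20.5), and Ccnd2 in CT26 is lower in the 3-week control (149.6 ± 5.24) than at 0 weeks (243 ± 14.6).

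Rechallenge of chronically exposed cells was compared with the same week's IFNγ culture that was not rechallenged, a group which both rechallenge times share. The largest change of any of the 10 genes was here, in Mdm2 of CT26 at 1 week. It stood at 34.3, 37.3 and 21.7 CPM without rechallenge, at 94.3, 104 and 101 after 2 h and at 81.3, 78.2 and 74.0 after 24 h. Every rechallenged library lay above every library without rechallenge. The log2 change was 1.51 ± 0.20 at 2 h (2.85-fold, adjusted p = 5.90e-06) and 1.16 ± 0.21 at 24 h (2.23-fold, adjusted p = 0.000452), where 0.376% and 1.32% of all genes passed. The lowest of the unchallenged libraries was 1 of the shallow ones, with 7 counts of Mdm2, and over all alternatives the change stayed between 1.40 and 1.63 at 2 h and between 1.05 and 1.27 at 24 h, each time past the threshold.

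At 2 and 3 weeks the same rechallenge gave no call for Mdm2 in CT26. The log2 change at 2 h was 0.26 (95% interval -0.08 to 0.61) at 2 weeks and 0.14 (-0.23 to 0.50) at 3 weeks. Before rechallenge the level was already 64.5 ± 17.1 CPM at 2 weeks and 91.4 ± 17.5 at 3 weeks, against 31.1 ± 8.29 at 1 week. The share of all genes that passed at 2 h and 24 h was 0.305% and 0.658% at 2 weeks, and 0.0117% and 0% at 3 weeks. In all, 2 of 42 pairs passed in CT26, both Mdm2, with 10 pairs at an unadjusted p under 0.05, and DESeq2 called 3. Under that unadjusted level were between 439 and 797 of 8516 genes in each rechallenge comparison of CT26.

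Cdkn1a gave no call on rechallenge in CT26 in edgeR. It stood at 213, 209.8 and 208 CPM 2 h after rechallenge at 1 week against 157, 138 and 130.2 without (log2 change 0.47 ± 0.12, adjusted p = 0.0874). At 2 weeks it stood at 169.7, 184 and 189 CPM against 133, 139.8 and 136 (0.42 ± 0.11, adjusted p = 0.152). Neither pair of groups overlapped. At 24 h after the 1-week rechallenge it stood at 159, 193.7 and 195 CPM (0.27 ± 0.12, adjusted p = 0.464). At 3 weeks the 2 h change was 0.05, with a 95% interval of -0.20 to 0.31.

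Ccnd2 was the remaining CT26 gene with separated groups on rechallenge. At 2 weeks it stood at 116, 137 and 114 CPM after 2 h against 172, 149 and 176 without (-0.44 ± 0.12, adjusted p = 0.217), and at 1 week at 266, 245 and 293 CPM after 24 h against 233, 203 and 167 (0.30 ± 0.13, adjusted p = 0.406). The directions differ between the weeks and neither passed. The share of all genes whose groups did not overlap was not counted, so these separations describe the libraries and are not calls.

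**Figure D3:**
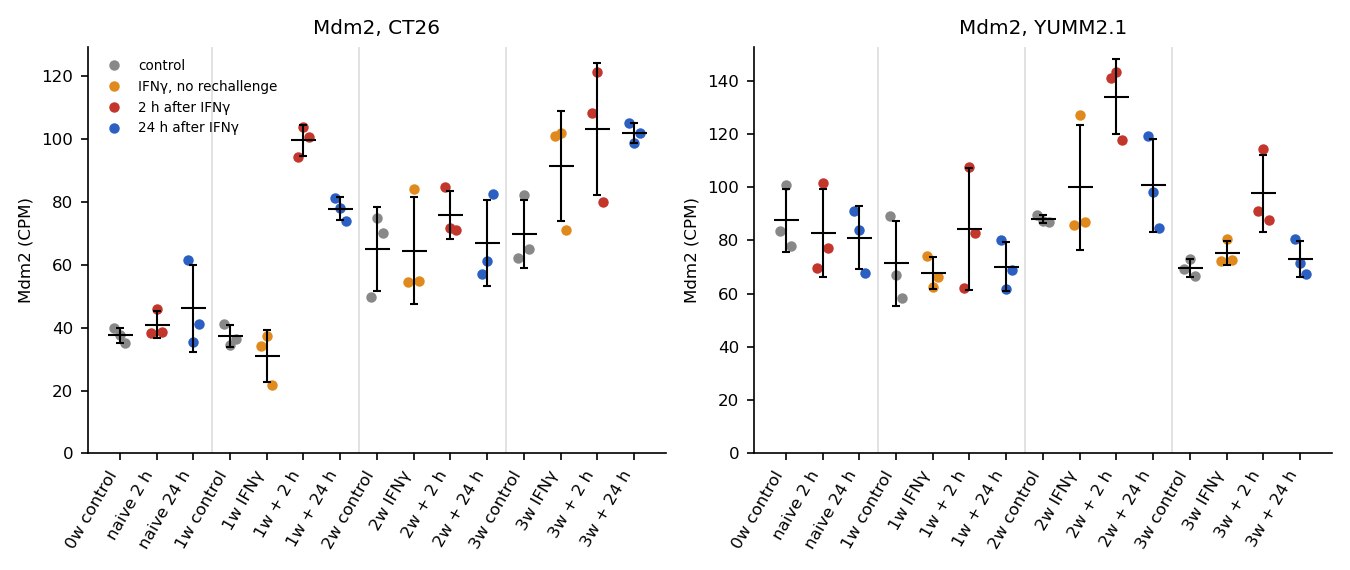
Mdm2 in CT26 and YUMM2.1, in CPM, for each of the 15 groups, with points for libraries and bars for mean ± SD of 3 libraries. In CT26 the 15 libraries of 0 weeks and of the 1-week cultures without rechallenge lie between 21.7 and 61.6 CPM, and all 6 libraries of the 1-week rechallenge lie between 74.0 and 104.

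In YUMM2.1 the rechallenge call was Myc, 2 h after IFNγ at 3 weeks. It stood at 72.4, 69.1 and 52.0 CPM against 36.5, 37.1 and 18.2 without rechallenge, with no overlap (log2 change 0.87 ± 0.23, 1.83-fold, adjusted p = 0.0456), where 1.08% of all genes passed. It was the only call among 48 pairs, with 9 pairs at an unadjusted p under 0.05. Under that unadjusted level were between 351 and 1156 of 9589 genes in each rechallenge comparison of YUMM2.1. The call sat at the threshold: it was lost in 35 of 51 alternatives, with log2 changes between 0.74 and 0.98. The lowest unchallenged library, at 18.2 CPM, held 5 counts of Myc and was the shallow one, and without it the change was 0.74 (adjusted p = 0.149).

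At 1 week Myc did not pass. It stood at 55.9, 56.2 and 42.7 CPM at 2 h and 39.6, 39.7 and 49.3 at 24 h, against 29.0, 36.7 and 8.26 without rechallenge, where the lowest library held 4 counts of Myc. The log2 change was 0.79 ± 0.22 at 2 h (adjusted p = 0.103) and 0.57 ± 0.23 at 24 h (adjusted p = 0.374), with 0.615% and 1.42% of all genes passing. At 2 weeks it was 0.32 at 2 h (95% interval -0.13 to 0.77), where 0.428% and 0.615% of all genes passed at the 2 times. By 24 h at 3 weeks Myc stood at 32.5, 22.8 and 32.2 CPM, back among the unchallenged libraries, and 0% of all genes passed there.

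Cdkn1a and Mdm2 in YUMM2.1 gave no call on rechallenge. Cdkn1a stood at 159, 200.3 and 166 CPM 2 h after rechallenge at 1 week against 131, 132 and 99.2 without (0.40 ± 0.14, adjusted p = 0.269), and at 172, 152 and 173 against 137, 118 and 106 at 3 weeks (0.38 ± 0.15, adjusted p = 0.272). Mdm2 reached its highest level in the line 2 h after rechallenge at 2 weeks, at 141, 143 and 118 CPM against 86.0, 127 and 86.9 without (0.50 ± 0.16, adjusted p = 0.294), with overlapping libraries.

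**Figure D4:**
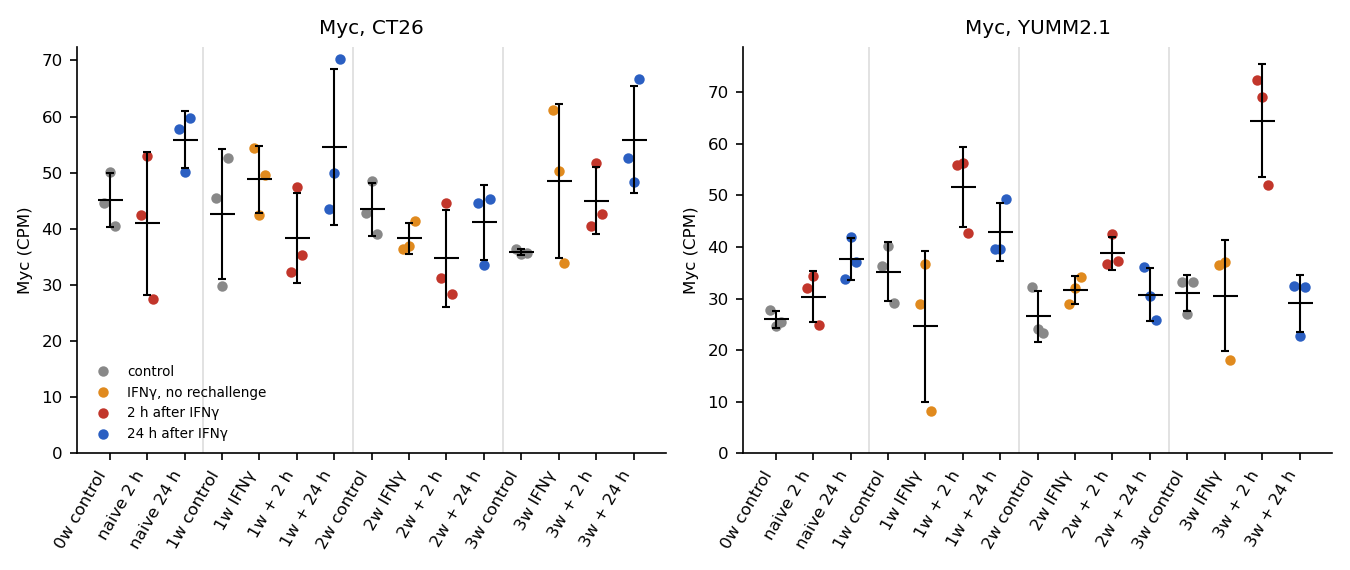
Myc in CT26 and YUMM2.1, in CPM, for each of the 15 groups, with points for libraries and bars for mean ± SD of 3 libraries. In YUMM2.1 the 3-week cells 2 h after rechallenge stand highest, at 64.5 ± 10.9 CPM, and in CT26 all group means lie between 34.8 and 55.9 CPM.

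When 3-week cells and naive cells were compared at the same hour after IFNγ, the differences were clearer. In YUMM2.1 at 2 h, Myc stood at 72.4, 69.1 and 52.0 CPM in 3-week cells against 32.1, 34.4 and 24.8 in naive cells, without overlap. The log2 difference was 0.95 ± 0.21 (1.93-fold, adjusted p = 0.00323), and it passed in 51 of 51 alternatives, between 0.82 and 1.08. It was 1 of 8 genes tested, at a time when 8.10% of all genes passed. At 24 h, where 0.813% of all genes passed, Myc lay at 29.1 ± 5.52 CPM against 37.7 ± 4.14 (-0.42, 95% interval -0.88 to 0.05).

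The response itself was not shown to differ. The 2 h change of Myc at 3 weeks less the naive one was 0.64 (95% interval -0.02 to 1.30, adjusted p = 0.748), and no gene of 8 passed at either time in YUMM2.1 or of 7 in CT26. Of all genes 0.115% and 0.615% passed in YUMM2.1 at 2 h and 24 h, and 0.211% and 1.20% in CT26. Over these 30 differences, 1 had an unadjusted p under 0.05 (Myc at 24 h in YUMM2.1), and DESeq2 called 0. Under that unadjusted level at 2 h and 24 h were 648 and 638 of 9589 genes in YUMM2.1. In CT26 they were 463 and 623 of 8516.

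In CT26 Mdm2 was higher in 3-week cells at both hours. At 2 h it stood at 108, 121 and 80.1 CPM against 38.3, 45.8 and 38.8 in naive cells (log2 difference 1.15 ± 0.18, 2.22-fold, adjusted p = 9.42e-06), and at 24 h at 105, 98.7 and 102 against 61.6, 35.6 and 41.1 (1.09 ± 0.20, 2.12-fold, adjusted p = 0.00112). No library overlapped at either hour, and both passed in all 51 alternatives. Of all genes 10.3% passed at 2 h and 2.48% at 24 h.

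Ccng1 was the third call, at 27.0, 45.4 and 14.2 CPM at 2 h against 9.58, 14.8 and 12.5 (1.04 ± 0.34, adjusted p = 0.0415). The libraries overlapped, and the call was lost in 5 of 51 alternatives. These left out any 1 of the 3 naive libraries, or the first or second 3-week library. Of the libraries compared, only the third 3-week one could be left out with the call kept. Without the second 3-week library the log2 difference was 0.67 (adjusted p = 0.402). At 24 h Ccng1 stood at 28.3, 20.5 and 35.3 CPM against 3.85, 14.5 and 11.2, without overlap, and did not pass (1.32 ± 0.40, adjusted p = 0.0608).

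These differences hold time in culture as well as exposure, so the control cultures were compared. In CT26, Mdm2 was also higher in the 3-week control than at 0 weeks, at 62.2, 82.3 and 65.0 CPM against 39.8, 37.6 and 35.2 (log2 change 0.97 ± 0.18, 1.96-fold, adjusted p = 0.00140). Ccnd2 was lower, at 155, 149.7 and 144 CPM against 237, 233 and 259.9 (-0.63 ± 0.12, adjusted p = 0.00237). Neither gene's libraries overlapped, both passed in 51 of 51 alternatives, and they were 2 of 7 genes tested where 0.916% of all genes passed. In YUMM2.1 0 of 8 passed, with 0 at an unadjusted p under 0.05, where 0.521% of all genes passed. Under that unadjusted level were 799 of 9589 genes in YUMM2.1.

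Control cultures at 1 and 2 weeks were compared with 0 weeks after these values had been seen. Mdm2 in CT26 was at 37.3 ± 3.50 CPM at 1 week (0.07, 95% interval -0.32 to 0.45) and at 49.7, 74.9 and 70.2 CPM at 2 weeks, which passed (0.87 ± 0.19, adjusted p = 0.0157), though not when libraries were scaled by their totals (0.77, adjusted p = 0.0622). The call was also lost without any 1 of 5 of the 6 libraries compared, all but the first 2-week control, with log2 changes of 0.75 to 0.92 and adjusted p up to 0.223. Of all genes 0.0117% and 0.247% passed at those weeks in CT26, and 0.0730% and 0.0209% in YUMM2.1. Ccnd2 in CT26 averaged 223 ± 12.5 and 208 ± 15.3 CPM at 1 and 2 weeks, and neither passed. Ccnd1 was at 109.7, 61.2 and 99.5 CPM in the 2-week control against 145, 144 and 149.6 at 0 weeks, and did not pass (-0.58 ± 0.19, adjusted p = 0.244).

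The Mdm2 change in control culture differed between the lines, in a test also added afterwards. In YUMM2.1 it stood at 69.2, 73.2 and 66.6 CPM at 3 weeks against 83.5, 101 and 78.1 at 0 weeks, lower in 3 of 3 libraries (-0.27, not passing), and in CT26 it was higher in 3 of 3. The log2 change in YUMM2.1 less that in CT26 was -1.21 ± 0.24 (adjusted p = 0.00637), where 0.184% of all genes passed. At 3 weeks the 2 lines' controls held 69.7 ± 3.32 and 69.9 ± 10.9 CPM.

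Across CT26, Mdm2 lay between 21.7 and 61.6 CPM (median 37.6) in the 15 libraries of 0 weeks and of the 1-week cultures without rechallenge. The 1-week rechallenge libraries lay between 74.0 and 104 CPM, the 12 libraries of 2 weeks between 49.7 and 84.6, and the 12 of 3 weeks between 62.2 and 121. With the 15 groups sorted by their means, each group's libraries overlapped those of its neighbour in 14 of 14 steps, for Mdm2 in CT26 as for Myc in YUMM2.1. Against the control of their own week, IFNγ cultures differed from it by -0.23, -0.09 and 0.25 at 1, 2 and 3 weeks, with 95% intervals of -0.67 to 0.21, -0.46 to 0.27 and -0.11 to 0.61. The sources used here do not say whether libraries of different weeks were prepared together, so week and preparation cannot be told apart.

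**Figure D5:**
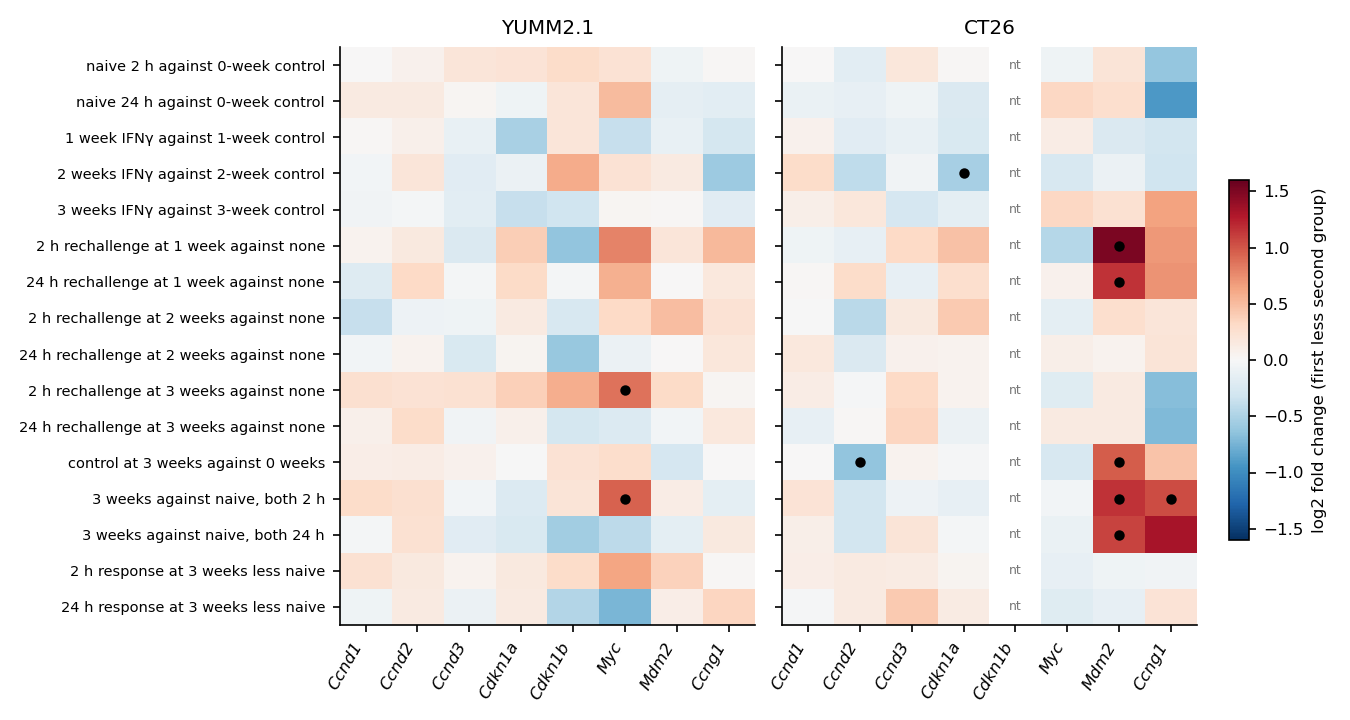
Log2 change of each tested gene in the 16 comparisons of each line, first group less second, with red for higher and blue for lower. Black dots mark an adjusted p below 0.05 and nt a gene not tested; Mdm2 in CT26 holds 5 of the 8 dots of that line, and both dots of YUMM2.1 are Myc.

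Genes whose group means followed a member most closely over the 15 groups of a line were listed by Pearson's r of log2 CPM. For Mdm2 in CT26 these were Btg2 (r = 0.96), an antiproliferative p53 target, Txnip (0.94), an inhibitor of thioredoxin, and Tox4 (0.89). For Myc in YUMM2.1 they were Errfi1 (0.92), an inhibitor of the EGF receptor, the matricellular gene Ccn1 (0.85) and the ubiquitin-activating enzyme Uba1 (0.84). For Ccnd2 in CT26 they were Drap1 (0.97), Suclg2 (0.88) and Wdr18 (0.88), for Ccng1 Sh3kbp1 (0.92), Cpt1a (0.86) and Sec24c (0.86), and for Cdkn1a Zfp142 (0.80), Map1s (0.80) and Pqlc1 (0.74). The points share libraries and their scaling, and each gene named is the best match among all those tested, so the values are a description.

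Few other genes of the pathways passed within a line. Their CPM use library totals, while the calls use the scaling of the log2 changes, and no alternatives were run for these genes. In YUMM2.1, 0 of 22 tested p53 network genes beyond the 10 passed in any of the 16 comparisons, and in CT26 1 of 19 passed in 1 comparison, Rps27l, lower in the 3-week IFNγ culture at 1122 against 1243 CPM. The median log2 change of that list in that comparison was 0.28, beside 0.02 for all genes.

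In the G1/S machinery, YUMM2.1 had 1 gene that passed of 23 in each of 2 comparisons, the same gene both times. Cdkn2d (p19Ink4d), an inhibitor of CDK4 and CDK6, was lower 2 h after rechallenge at 3 weeks, at 73.9 against 146 CPM (log2 change -0.99 ± 0.16), and lower than in naive cells at 2 h, at 73.9 against 123 CPM (-0.85 ± 0.15). Both comparisons use the same 3 libraries taken 2 h after rechallenge. In CT26, of 21 tested genes, the CDK-activating kinase subunit Mnat1 (29.8 against 40.7 CPM) and the CDK subunit Cks1b (459 against 548) were lower in the 3-week IFNγ culture. Both were also lower in 3-week than in naive cells at 2 h, as was Cdk4 (368 against 417 CPM), while Cdk6 was higher (34.3 against 13.7). The other comparisons gave no call in this list.

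Of the 28 genes that Myc activates, those that passed went in both directions where Myc was higher than in naive cells. In YUMM2.1 3-week cells against naive cells at 2 h, 2 of 28 were higher, the ribosome factor Rrs1 (34.2 against 12.4 CPM) and the polyamine enzyme Odc1 (74.6 against 27.8), and 4 were lower, Ldha (1601 against 2206) and Nop56 (229 against 285) among them. These 6 of 28 stand beside 8.10% of all genes, and the list's median was -0.10 beside 0.04 for all genes. On 2 h rechallenge at 3 weeks, 0 of 28 passed. At 1 week Nop56 was lower 2 h after rechallenge (220.3 against 309 CPM), and Ldha lower after 24 h (1351 against 1945). In CT26 3-week IFNγ culture Odc1 (224 against 90.5 CPM) and Wdr43 (114 against 67.0) were higher, and Ldha (4996 against 5872) and Ran (2074 against 2273) lower, 4 of 28 beside 7.23% of all genes. In CT26 3-week against naive cells 1 was higher and 5 lower at 2 h, beside 10.3% of all genes, and 0 higher and 2 lower at 24 h, beside 2.48%, Tbrg4 (9.63 against 26.5 CPM) and Bop1 (39.1 against 59.9). Tbrg4 also passed in the 24 h response at 3 weeks less the naive one (-1.59 ± 0.34). Of 7 tested Myc network genes in YUMM2.1 0 passed, and of 5 in CT26 1 did, Max, in 3-week against naive cells at 2 h (43.1 against 22.3 CPM).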

How the data were processed

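Gene counts were deposited by the authors as 1 table of raw counts per gene for 90 libraries, with whole numbers and no normalization. Per the labels, RNA came from triplicate experiments and was measured by 3′ digital gene expression. The submitters' processing notes name Salmon 0.13.1 and mm10, and the study's methods name summing to genes; collapse of molecular identifiers is not given in the sources used here. The study left out some libraries without naming them, and all 90 were kept here. The p-values rest on the spread between libraries within groups, estimated over all groups of a fit together and shared in part between genes. A library outside a comparison can therefore move its p-value. With 3 against 3, an exact two-sided permutation test cannot go below 0.1, so tests across all genes were used. Groups whose libraries do not overlap reach that limit and no lower, so a lack of overlap describes the libraries and is not a call. How often groups did not overlap among all genes was not counted.

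Symbols were matched for 53668 of 53697 identifiers. Genes were filtered by group (filterByExpr), scaled by TMM and tested with edgeR 4.0.16 (quasi-likelihood, R 4.3.3), the 15 groups of a line in 1 fit and both lines in another, with Benjamini-Hochberg adjustment over all tested genes and a threshold of 0.05. CPM use library totals, while log2 changes use TMM. Alternatives were DESeq2 1.42.0, library totals, no filter, only the groups compared, the replicate number as a block, no shallow libraries and each library left out. A 95% interval is the log2 change ± the t quantile times its SE. The test was also run on simulated counts in which all genes were given the same dispersion. That setting differs from these data, so no conclusion is drawn from it here. Replicate pairs differed by more than sampling noise. A count of 0 was read as up to 3 counts, and such limits cover counting error only.

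The 10 genes and the lists were chosen with earlier results of these data known. The text names the 10 genes in every comparison, up to 4 genes per pathway list and comparison with the smallest p among those passing, and the 3 genes most like a gene called. Positions are from GENCODE M21 (GRCm38). Some items are not reported here.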

Additional observations from a re-analysis of the deposited data

Results flagged for a closer look

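Mdm2 in the control cultures was flagged because every library of each line lay on the opposite side of its 0-week controls. The log2 change from 0 to 3 weeks was -0.27 in YUMM2.1, where it did not pass the threshold, and 0.97 in CT26, where it did. The change in YUMM2.1 less that in CT26 was -1.21 (SE 0.24, 95% interval -1.69 to -0.73, adjusted p = 0.00637 in edgeR's quasi-likelihood test of both lines). That comparison was chosen after the values had been seen. Without the second replicate of the CT26 3-week control it was -1.10 (adjusted p = 0.0539).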

How the results depend on the processing

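No result reversed under any alternative. The calls of Mdm2 in CT26 on 1-week rechallenge, in the 3-week control and in 3-week against naive cells, of Ccnd2 in the CT26 3-week control and of Myc in YUMM2.1 3-week against naive cells at 2 h passed in all 51 alternatives run for each. Of these 51, 45 left out 1 library of the line. Most of those libraries lay outside the comparison and bear on it only through the shared fit, so 51 overstates the number of separate checks. For chronic exposure in CT26 the count of 1 became 5 against the 0-week control and 0 with no filter on low counts, and in YUMM2.1 the count of 0 became 1 with DESeq2 (Cdkn1a at 1 week). For rechallenge in YUMM2.1 the count of 1 became 2 with library totals, which added Myc at 1 week, and 0 with no filter, with only the groups compared or without shallow libraries. For the added control cultures in CT26, 1 became 0 with library totals and 2 with no filter, and for their difference between lines 1 became 2 with DESeq2 and with only the groups compared. With each library left out in turn, the counts ran from 0 to 2 for chronic exposure in CT26 (0 without the first 2-week control, 2 without the first 3-week IFNγ library), from 0 to 1 in YUMM2.1, from 0 to 2 for rechallenge in YUMM2.1, from 0 to 1 for the added CT26 controls and from 0 to 2 for the added difference between lines. Causes were not tested, beyond the fewer libraries or genes that an alternative itself holds. Library totals moved the median of all genes by between -0.06 and 0.13 on the log2 scale in YUMM2.1 and between -0.10 and 0.20 in CT26. The shift of 0.20 was in the CT26 3-week IFNγ culture against its control. In CT26 3-week against naive cells at 2 h it was 0.18. Some genes named from the lists differ in CPM by no more than these shifts. Depth limits Cdkn1b and the shallow libraries most.

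Replicate numbers did not pair the samples: the correlation of same-numbered deviations was -0.142 to 0.324 (YUMM2.1) and -0.154 to 0.206 (CT26), and the same number gave the best correlation in 18 of 48 pairs of samples in YUMM2.1 and 20 of 48 in CT26, pairs that share libraries between comparisons. With the replicate number as a block, no count of calls among these genes changed: in CT26 3 for 3-week against naive cells, 2 for rechallenge, 2 for the 3-week control and 1 for chronic exposure, in YUMM2.1 1 for rechallenge and 1 for 3-week against naive cells, and 6 for the untreated lines.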
